A study of Mus musculus with 32 samples.

Results

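The trimethylation of histone H3 on lysine 9 (H3K9me3) was compared between postnatal day 0 (P0) and postnatal day 3 (P3) in male germ cells of mice with 1 intact copy of Morc1. The comparison used 2 deposited peak lists, with 82082 peaks at P0 and 77632 at P3 on the 19 autosomes, out of 581860 autosomal peaks in the 8 lists of the series. Peaks that shared 1 bp or more between the 2 lists were counted as kept, a P3 peak that touched no P0 peak as new, and a P0 peak that touched no P3 peak as gone. By this rule 64568 P0 peaks and 66702 P3 peaks were kept, 10930 P3 peaks were new and 17514 P0 peaks were gone.

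The germ cells were isolated from testes of Mvh-Venus transgenic animals, a reporter that marks germ cells, and every group carried that transgene. The genotypes were Morc1 (+/-), called het here, and Morc1 (-/-), called KO, both at P0 and at P3. The het and KO lists of the embryonic stages E13.5 and E16.5 served as further lists the rule did not use. Each group had 2 H3K9me3 samples and 1 list. The series also holds 16 samples of histone H3 itself, 2 for each stage and genotype, which were not analysed here, and whether they served in peak calling is not given in the sources used here. The labels say neither how the samples were combined nor how many animals each held. With 1 list per group no p-value was computed, and results are given with 95% Wilson intervals and with the range over the 19 autosomes. The intervals cover counting error only, and neighbouring peaks are not independent. The depth behind the lists is unknown, and peak lists of pooled cells cannot tell the loss of a mark in some cells from a weaker mark in all of them.

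H3K9me3 is laid down by methyltransferases such as SETDB1 and SUV39H1, is bound by heterochromatin protein 1, and marks silent chromatin, in particular repeats and clusters of zinc finger and chemosensory receptor genes. Around birth the male germ cells of the mouse, called gonocytes or prospermatogonia at this stage, are arrested in the cell cycle and acquire DNA methylation. In the following days they return to division and form the first spermatogonia. MORC1 is a nuclear ATPase of the male germ line that is needed for the silencing of transposons in these cells. A peak list of a silencing mark holds no expression, so the identity of the cells could not be checked from it: of 6 germ cell marker genes 1, Ddx4, had a called base pair at either stage, as did 1 of 4 Sertoli cell markers (Fshr), 1 of 5 Leydig cell markers (Hsd3b1) and 4 of 6 markers of peritubular, vessel and blood cells (Myh11, Pecam1, Vwf and Ptprc).

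Some of the peaks that covered a gene start at P0 only lay on promoters rich in CG, and few of those at P3 only did. The following sequences, chosen after their values were seen, show the contrast at its clearest and not the typical promoter of either kind. They are the 250 bases before the start of 3 genes whose start lay in a gone peak (Rasa1, Cdk13, Zbtb38) and of 3 whose start lay in a new peak (Stab2, Ccl28, Fat1), from RefSeq on assembly GRCm38.p6, 5′ to 3′ on the gene's strand. Each stretch lies wholly within its peak. Capitals mark the dinucleotide CG.
Rasa1: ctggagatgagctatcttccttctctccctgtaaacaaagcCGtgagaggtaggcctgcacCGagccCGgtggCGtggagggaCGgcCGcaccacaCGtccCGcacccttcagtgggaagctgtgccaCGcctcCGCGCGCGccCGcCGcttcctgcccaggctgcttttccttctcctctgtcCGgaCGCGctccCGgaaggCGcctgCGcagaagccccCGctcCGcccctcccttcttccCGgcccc
Cdk13: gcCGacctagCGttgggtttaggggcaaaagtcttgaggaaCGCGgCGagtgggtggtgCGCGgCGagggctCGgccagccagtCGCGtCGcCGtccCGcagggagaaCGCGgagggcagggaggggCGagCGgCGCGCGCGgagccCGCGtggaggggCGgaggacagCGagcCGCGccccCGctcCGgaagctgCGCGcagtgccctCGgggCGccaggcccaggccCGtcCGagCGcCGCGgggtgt
Zbtb38: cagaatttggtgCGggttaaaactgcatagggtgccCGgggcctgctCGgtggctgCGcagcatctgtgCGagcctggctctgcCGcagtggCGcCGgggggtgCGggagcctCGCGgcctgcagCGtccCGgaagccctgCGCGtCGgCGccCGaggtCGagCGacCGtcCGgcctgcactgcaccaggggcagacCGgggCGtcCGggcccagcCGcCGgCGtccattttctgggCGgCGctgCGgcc
Stab2: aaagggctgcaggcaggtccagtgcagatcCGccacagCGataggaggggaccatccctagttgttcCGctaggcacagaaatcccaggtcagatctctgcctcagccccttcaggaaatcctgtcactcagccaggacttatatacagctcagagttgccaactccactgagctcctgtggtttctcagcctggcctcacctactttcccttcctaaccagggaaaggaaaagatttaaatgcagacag
Ccl28: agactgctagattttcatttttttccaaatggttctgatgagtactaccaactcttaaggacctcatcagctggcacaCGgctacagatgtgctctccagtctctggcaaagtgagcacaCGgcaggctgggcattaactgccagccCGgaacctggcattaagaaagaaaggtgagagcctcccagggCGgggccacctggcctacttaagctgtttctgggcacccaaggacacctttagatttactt
Fat1: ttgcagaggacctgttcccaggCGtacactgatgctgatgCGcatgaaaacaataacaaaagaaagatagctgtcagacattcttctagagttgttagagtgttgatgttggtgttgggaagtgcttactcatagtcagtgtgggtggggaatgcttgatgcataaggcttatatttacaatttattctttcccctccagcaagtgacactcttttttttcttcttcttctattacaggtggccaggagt

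Rasa1, which encodes a GTPase-activating protein for Ras, has 24 CG in this stretch (chr13:85289487-85289736, minus strand), Cdk13, a cyclin-dependent kinase, has 39 (chr13:17805098-17805347, minus strand) and Zbtb38, a zinc finger protein that binds methylated DNA, has 31 (chr9:96719851-96720100, minus strand). Stab2, a scavenger receptor of endothelial cells, has 3 (chr10:87007943-87008192, minus strand), Ccl28, a chemokine, has 4 (chr13:119623569-119623818, plus strand) and Fat1, an atypical cadherin, has 2 (chr8:44949958-44950207, plus strand). The P0 peaks over the first 3 starts were 4.27, 1.598 and 2.14 kb long, and the P3 peaks over the last 3 were 10.7, 7.16 and 4.75 kb long.

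Over all starts the promoters differed less than these 6. Of 31396 annotated starts, 157 lay in a new peak and 200 in a gone peak. Among protein-coding genes, the promoter (250 bases before to 50 after the start) held 10 or more CG at 40 of 103 starts in gone peaks, or 38.8%, and at 2 of 71 starts in new peaks, or 2.82%. The share was 5.87% at starts in kept P0 peaks and 57.9% over every protein-coding promoter. The other 63 protein-coding starts in gone peaks had fewer CG, and the median was 6 CG in gone and 4 in new peaks. Over genes of every kind the median was 4 CG in both, and 10 or more CG were held by 26% of the promoters in gone peaks, 2.55% of those in new peaks, 6.13% of those in kept P0 peaks and 43.95% of all promoters. The motif TCCCGC, searched on both strands and holding a CG itself, was in 19.4% of the promoters in gone peaks, in 0 of the 71 in new peaks and in 26.3% of all protein-coding promoters. CACGTG, which reads the same on both strands, was in 3.88% of the promoters in gone peaks, in 2.82% of those in new peaks and in 7.89% of all. CG-rich promoters were thus more frequent under gone peaks than under kept or new ones, and less frequent there than among promoters at large. Among protein-coding genes the difference between gone and new peaks, 36.0 percentage points, was 19.8 points when a 1 kb window around each start was used.

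The gone peaks over CG-rich promoters had fewer counterparts in the KO and E16.5 het lists than those over other promoters, but not in the E13.5 het list. The 40 protein-coding starts with 10 or more CG lay in 38 gone peaks, of which 9 (23.7%) touched a P0 KO peak, 3 a P3 KO peak, 8 an E16.5 het peak and 6 an E13.5 het peak, while 21 touched none of the E13.5 het, E16.5 het, P0 KO and P3 KO peaks. The 63 starts with fewer CG lay in 61 gone peaks, of which 50 (82.0%) touched a P0 KO peak, 28 a P3 KO peak, 23 an E16.5 het peak and 9 an E13.5 het peak, and 7 touched none of the 4 lists. Rasa1, Cdk13 and Hacd1, a dehydratase of long-chain fatty acid synthesis, had no called base pair under their P0 peak in any of those 4 lists. Others with a CG-rich start under a gone peak were Gsk3b, a kinase of Wnt signalling, Casp9, an initiator caspase, Wiz, a partner of the H3K9 methyltransferases G9a and GLP, and the germ cell genes Spata22 and Dmrtc2, all named after their values were seen. The starts of 12 genes of the lists and families described further on lay in gone peaks (Defb20, Olfr113, Olfr125, Olfr1277, Olfr266, Olfr594, Olfr859, Vmn1r192, Vmn1r63, Vmn2r23, Zfp119b and Zfp760). The starts of 6 lay in new peaks (Defb28, Olfr1362, Olfr275, Olfr455, Vmn2r69 and Zfp652). Of these 18 only Zfp760, with 12 CG, had a CG-rich promoter.

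The mark covered less of the genome at P3 than at P0. The peaks covered 309.0 Mb at P0 and 278.0 Mb at P3, a ratio of 0.900 that ranged from 0.852 on chromosome 3 to 1.014 on chromosome 11 and was below 1 on 18 of 19 autosomes. In KO the ratio was 0.938. The median peak length was 2482 bp at P0 and 2556 bp at P3, but peaks of 10 kb or more went from 4890 to 3679 and peaks of 30 kb or more from 191 to 88. The 2 lists shared 231.1 Mb. Of the 77.9 Mb called at P0 only, 65.8% lay at the flanks or in gaps of kept peaks and 34.2% in gone peaks. Of the 46.9 Mb called at P3 only, 64.5% belonged to kept peaks and 35.5% to new ones.

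New peaks made up 14.1% of the P3 list (95% Wilson interval 13.8% to 14.3%), from 11.03% on chromosome 3 to 21.3% on chromosome 11. Gone peaks made up 21.3% of the P0 list (21.1% to 21.6%), from 19.003% on chromosome 15 to 22.6% on chromosome 14. With the longest peaks of each list taken in equal number there were 12512 new and 14736 gone peaks, a smaller excess of gone ones. Both kinds were short, with medians of 1257 and 1260 bp against 3093 bp for kept P0 peaks. The shortest common length, 1001 bp, was that of 46.0% of new and 43.3% of gone peaks. At that length 62.9% of P0 peaks had no P3 counterpart, and at 10 kb or more 0.102% did, which was 5 of 4890 peaks. A shared base pair is enough for a peak to be kept, which a long peak meets by its length, so these shares do not measure how stable long domains were. A gone peak lay a median of 8.44 kb from the nearest P3 peak, and a new peak 11.4 kb from the nearest P0 peak.

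Kept peaks more often narrowed than widened. They formed 63050 groups of touching peaks, of which 58515 (92.8%) matched 1 P0 peak to 1 P3 peak. In these pairs a peak was called narrower when its P3 length was at most 0.8 times its P0 length, and wider in the reverse case. By this rule 15872 pairs were narrower, a share of 27.1%, and 11191 were wider, a share of 19.1%, while the other 31452 changed less. With a limit of 0.6 in place of 0.8, 6875 were narrower and 4172 wider. The narrower peaks had a median length of 3130 bp at P0 and 1583 bp at P3, and the wider ones of 1721 and 2976 bp. There were 1.42 narrower pairs per wider pair, from 0.867 on chromosome 11 to 1.74 on chromosome 3, with more narrower than wider pairs on 18 of 19 autosomes. In 65.9% of the narrower and 63.7% of the wider pairs, a single edge moved by at least 0.25 kb, and in 31.7% and 34.2% both edges did. A further 3096 P0 peaks were split into 6591 P3 peaks, which took their covered length from 40.4 to 29.1 Mb, and 2673 P0 peaks were joined into 1300, which took it from 10.2 to 13.6 Mb.

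The direction of these changes differed between gene bodies and the space between genes. Within protein-coding gene bodies, 30.4% of the 15539 matched pairs were wider and 20.9% narrower, and wider pairs were the more numerous on 19 of 19 autosomes. Between genes, 15.0% of 42976 pairs were wider and 29.4% narrower, and wider pairs were the more numerous on 0 of 19. The median length of a genic pair went from 2344 to 2603 bp and that of an intergenic pair from 3230 to 2931 bp.

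**Figure D1:**
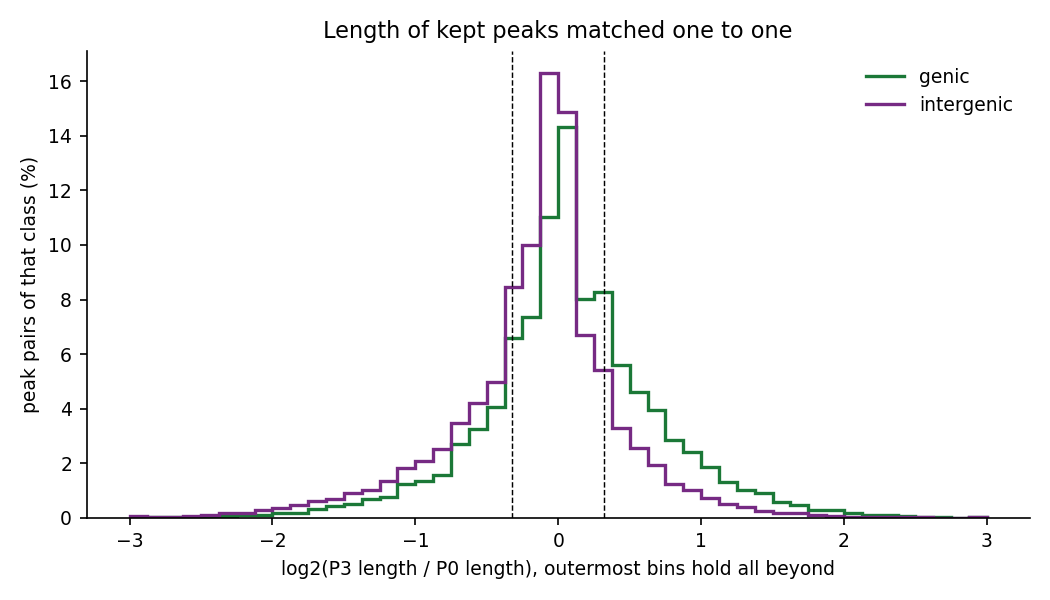
Length of kept peaks matched 1 to 1, as log2 of P3 length over P0 length, in percent of the pairs in gene bodies (green) and between genes (purple); dashed lines mark the limits for narrower and wider. The intergenic curve is the higher one to the left of 0 and in the first bin to the right of it (14.9% against 14.3%). From 0.125 to 2.75 the genic curve is the higher one.

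New peaks fell in genes more often than gone ones. The midpoint lay in a protein-coding gene body in 51.3% of new peaks (50.3% to 52.2%), from 41.3% to 58.4% over autosomes. It did so in 25.8% of gone peaks (25.1% to 26.4%, autosomes 17.8% to 34.0%) and in 25.6% of kept P0 peaks. The order was the same among short and long peaks: at 1001 bp 46.9% of new and 27.0% of gone peaks were genic, and at 3 kb or more 58.8% and 18.3%. Kept P0 peaks were longer, and at equal length their share was not that of gone peaks throughout: it was 38.5% at 1001 bp, 35.4% above that and under 2 kb, where gone peaks had 26.3%, and 18.4% at 3 kb or more. Far from genes the order was reversed, with 4.48% of new and 13.1% of gone peaks more than 500 kb from any coding gene. In base pairs, the peaks within gene bodies covered 59.9 Mb at P0 and 64.8 Mb at P3, a ratio of 1.08 that exceeded 1 on 19 of 19 autosomes (1.012 to 1.36). Those between genes covered 249.1 and 213.2 Mb, a ratio of 0.856 that was below 1 on all 19 (0.825 to 0.925). The KO lists, made from other samples, gave ratios of 1.08 within genes and 0.897 between genes, with the genic ratio the higher on 19 of 19 autosomes, and 47.9% of KO new and 30.3% of KO gone peaks were genic.

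**Figure D2:**
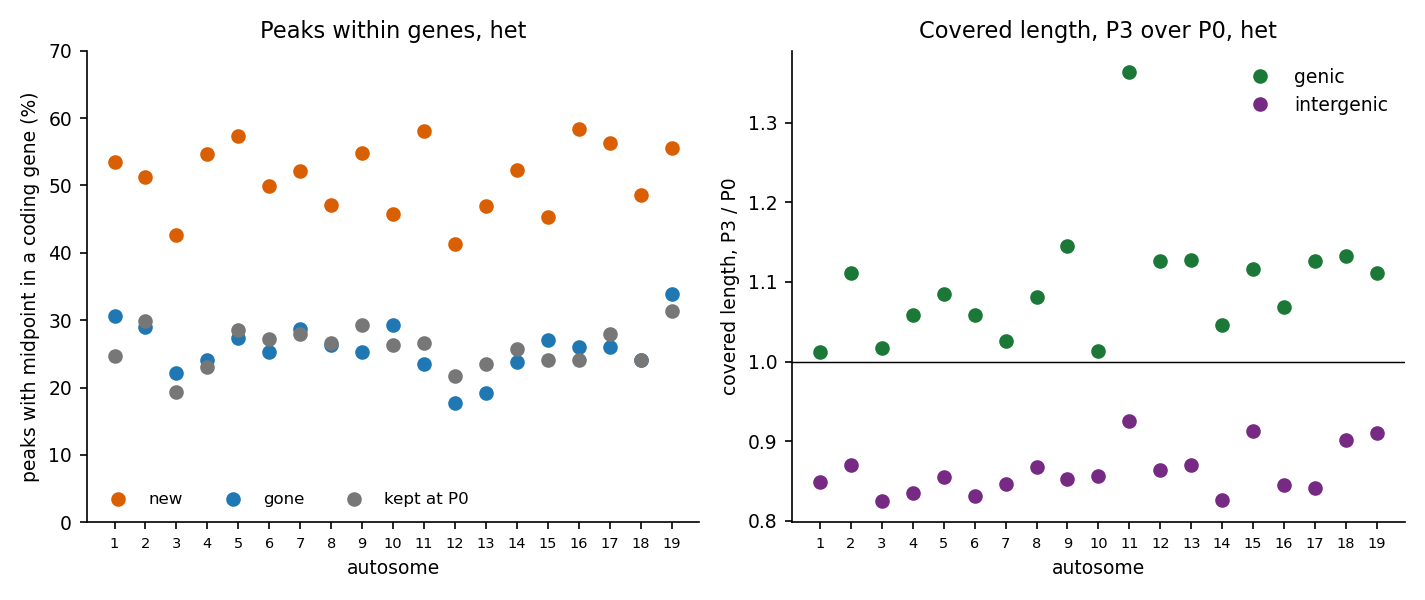
Left, percent of new, gone and kept P0 het peaks with their midpoint in a protein-coding gene, by autosome; right, covered length at P3 divided by that at P0, within genes and between genes, by autosome, with a line at 1. New peaks lie above gone and kept peaks on every autosome, and all 19 genic ratios lie above all 19 intergenic ones.

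The same contrast appeared along the chromosomes in windows of 1 Mb. In the third of windows with the least genic sequence (798 windows), the covered length at P3 was 0.833 of that at P0, with 142 windows higher and 656 lower. In the third with the most genic sequence (799 windows) the ratio was 1.015, with 491 higher and 308 lower. The largest decrease, from 536.0 to 330.2 kb, was in the window from 4 to 5 Mb of chromosome 3, which holds no coding gene. The next, from 446.2 to 250.4 kb, was at 18 to 19 Mb of chromosome 17, in a cluster of Vmn2r genes. The largest increase, from 118.8 to 216.4 kb, was at 112 to 113 Mb of chromosome 13, around Ddx4 and Slc38a9. Within genes of at least 20 kb, new peaks were spread along the whole body, with 8.29% of them in the first 10% of the gene and 11.4% in the last 10%, against 8.75% of gone peaks in the first 10%.

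At the level of genes, gains outnumbered losses. A gene was tested when peaks covered at least 2 kb of its body at either stage, and called gained or lost when the covered length differed at least 1.5 times and by at least 1 kb. Of 5958 such genes, 2065 gained covered length (34.7%) and 674 lost it (11.3%). The gained genes had a median of 1.58 kb at P0 and 4.43 kb at P3, and 529 of them had no called base pair at P0. The lost genes had a median of 4.51 kb at P0 and 1.91 kb at P3, and 124 had none at P3. The number lost was sensitive to the rule, with 419 at a ratio of 2, 1151 with a minimum of 1 kb and 1246 with 5 kb added on each side, where 1428, 2972 and 2437 genes gained. Without any minimum, 5293 coding genes had more covered length at P3 and 3155 had less. The 56 genes with a mean of over 100 kb went from 9.23 to 7.93 Mb in all. In KO, 1816 of 6558 tested genes gained (27.7%) and 789 lost (12%). The 1192 genes that gained in both genotypes were 57.7% of the het and 65.6% of the KO gains, and the 274 that lost in both were 40.7% and 34.7% of the losses.

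**Figure D3:**
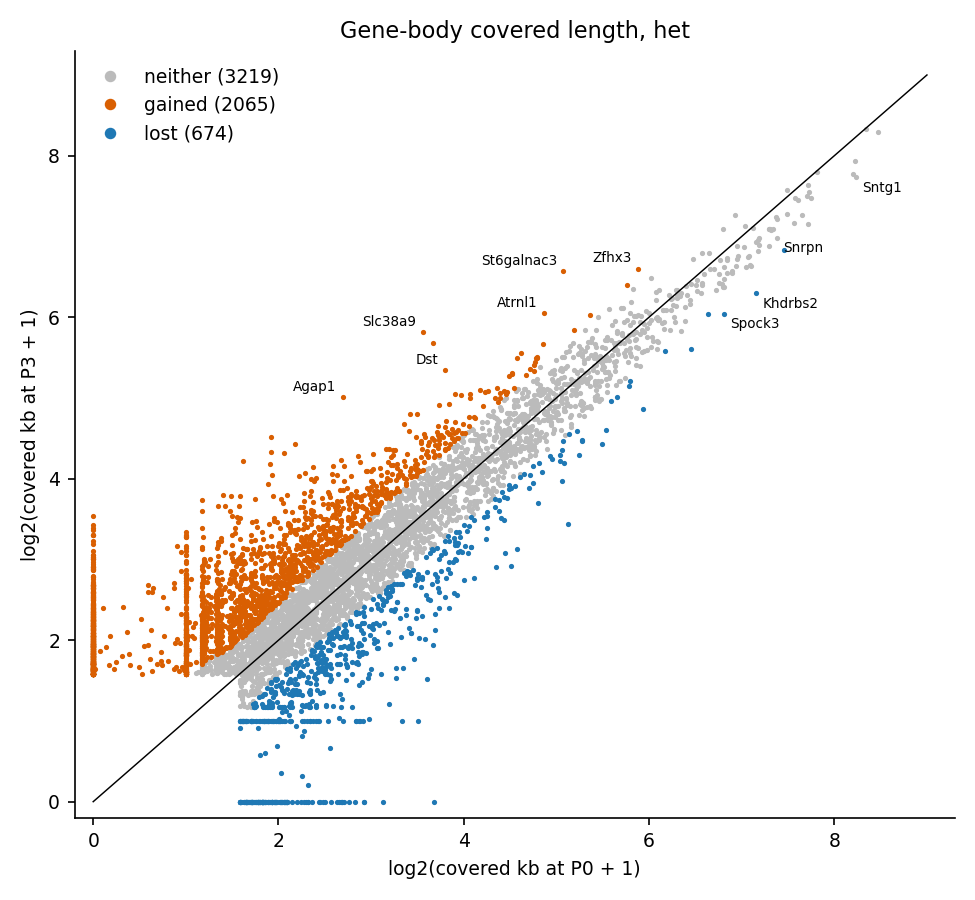
Covered length of the gene body at P0 and P3 in het, both as log2(kb + 1), for the 5958 genes with at least 2 kb at either stage; colours give the call, the line marks equal length, and names mark some of the genes with the largest changes in kb. The minimum of 2 kb leaves the corner at the low end empty, and the largest decreases in kb lie at the high end.

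St6galnac3, which encodes a sialyltransferase, had the largest increase, from 32.7 kb at P0 to 93.9 kb at P3, with 10 new peaks, 7 widened ones and 1 gone peak. KO showed an increase there too, from 54.4 to 107.2 kb. Dst, which encodes the cytoskeletal linker dystonin, went from 12.9 to 39.8 kb, and in KO from 21.7 to 54.1 kb. Agap1, a GTPase-activating protein of the Arf family, had 5.47 and 31.2 kb (KO 10.5 and 38.6 kb). Both had been little covered in the embryo, with 4.22 kb in Dst and 6.81 kb in Agap1 at E16.5 in het. Atrnl1 had 28.1 and 65.4 kb, the transcription factor gene Sox5 53.4 and 83.2 kb, and the transcription factor gene Zfhx3 58.0 and 96.0 kb. The kinase gene Stk32b had 63.8 and 88.3 kb, a ratio under 1.5. Of the 10 genes, 8 were called gained.

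Ddx4 and its neighbour Slc38a9 on chromosome 13 completed that group and had a course of their own. Ddx4, the RNA helicase also known as Mvh, was covered over 50.03 kb of its 54.3 kb in the E13.5 het list, 49.97 kb in the E16.5 het list, 11.7 kb at P0 and 50.2 kb at P3. Slc38a9, a lysosomal amino acid transporter, had 55.5, 57.1, 10.8 and 55.3 kb. In KO, Ddx4 was covered over 47.5 and 6.79 kb at the embryonic stages and over 12.2 and 27.5 kb after birth. The longest new peak of all, 16.4 kb at chr13:112597967-112614371, lay in Ddx4. The low values were thus in the P0 lists of both genotypes and in the E16.5 KO list. The reporter transgene is named after this gene, and the part of transgene copies in these lengths was not tested.

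The largest decreases in kb were in very long genes that were heavily covered at P0. Sntg1, a syntrophin, went from 300.3 to 212.1 kb of its 942 kb, with 15 gone and 13 narrowed peaks against 2 new ones, and KO had 289.5 and 217.2 kb. Naaladl2 had 293.1 and 217.1 kb, Ptprd, a receptor phosphatase of synapses, 208.7 and 140.9 kb, and Lrp1b, a lipoprotein receptor of neurons, 200.7 and 152.8 kb. Skint6, of the Skint family of skin and thymus, had 298.1 and 244.6 kb and Fstl5 188.6 and 142.4 kb. Snrpn, the imprinted gene of the Prader-Willi region, had 165.3 and 125.5 kb. Khdrbs2, an RNA-binding protein of neurons, went from 141.9 to 77.8 kb, Galntl6 from 175.2 to 113.2 kb and Spock3 from 110.8 to 65.0 kb, and these 3 of the 10 were called lost. In all 10 the E16.5 het list is a further point, and it ran from 156.6 kb in Spock3 to 376.8 kb in Naaladl2, above the P3 length except in Sntg1, where it was 211.8 kb.

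Summed over each list, genes of the germ line and of H3K9 methylation itself had more covered length at P3 than at P0. These lists were drawn up for this comparison, and their counts are to be read beside 34.7% gained and 11.3% lost of all tested genes. Over all coding genes, 5293 members were higher and 3155 lower at P3, and the ratio of the sums was 1.08. Without a called base pair at either stage were 11 of 27 H3K9 methylation, 21 of 38 gonocyte and 19 of 45 germ line genes. A gene with under 2 kb at one stage was tested only where it had more at the other, so these counts describe the tested members, and the sums and the numbers of members higher or lower are given over all members found. Among genes with a mean of 2 kb or more, all of which passed the minimum, the share gained was 40.2% from 2 to 5 kb, 28.2% from 5 to 10 kb and 5.88% from 30 to 100 kb. Tested genes with a mean under 2 kb passed it through 1 stage only, and 64.3% of them gained and 18.8% lost. Some list members called gained, such as Tasor and Dnmt3a, are in that class. Of 27 genes for enzymes and partners of H3K9 methylation, 16 were tested, 10 gained and 2 lost, and their summed length went from 43.9 to 89.3 kb, with 13 members higher and 3 lower at P3. All 16 averaged under 10 kb. Setdb1, the methyltransferase, had 1.78 kb at P0 and 5.77 kb at P3, Atf7ip, its partner, 1.001 and 7.63 kb, and Ehmt1, the methyltransferase GLP, 4.70 and 9.24 kb. Pphln1 and Tasor, both of the HUSH silencing complex, had 4.09 and 13.4 kb and 0 and 2.25 kb. The demethylase genes differed, with Kdm4a at 2.10 and 6.92 kb and called gained, and Kdm4c at 4.52 and 2.60 kb and called lost. Morc1 itself had 3.47 and 3.21 kb. In KO, 8 of the list gained and its sum went from 45.1 to 95.2 kb.

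Of 38 genes of gonocytes and spermatogonia, 14 were tested, 9 gained and 1 lost, and the sum went from 69.6 to 125.1 kb, with 13 higher and 4 lower. Dmrt1, a transcription factor of male germ cells, had 14.7 kb at E13.5, none at E16.5 or P0 and 9.74 kb at P3, and 4.12 kb at P3 in KO. Etv5, a transcription factor of spermatogonial self-renewal, had none at P0 and 6.86 kb at P3 (10.1 kb in KO). Dnmt3a, a DNA methyltransferase active in prospermatogonia, had none at P0 and 3.25 kb at P3 in het, and 3.85 and 3.15 kb in KO. Itga6, an integrin of spermatogonia, had 4.85 and 13.01 kb, and Zbtb16, known as PLZF, 7.95 and 12.6 kb, while in KO Zbtb16 had 18.9 and 13.9 kb. Kit, the receptor of differentiating spermatogonia, was the one called lost, with 2.79 and 1.76 kb. Of 45 genes of the germ line and meiosis, 21 were tested, 11 gained and 3 lost. Their sum was 175.5 kb at P0 and 241.7 kb at P3, and Ddx4 alone made up 38.5 kb of the difference. Of the 45, 18 were higher and 8 lower, beside 5293 higher and 3155 lower of all coding genes. Tex15 and Stk31 had no called base pair at P0 and 6.49 and 5.37 kb at P3. Msh4, a meiotic recombination gene, had 1.86 and 6.90 kb. Dmc1, the meiotic recombinase, was called lost with 5.42 and 2.76 kb. The second largest change of the list, after Ddx4, was a fall in a member not named here. It had 76.9 kb at P0 and 60.6 kb at P3 and was called neither gained nor lost, and in KO it had 63.2 and 66.0 kb.

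The Vmn2r family had the opposite direction. Of 122 Vmn2r genes, which encode pheromone receptors of the vomeronasal organ, 75 were tested, 33 lost and 0 gained, and their sum went from 992.3 to 698.0 kb, with 75 members lower and 6 higher at P3. Vmn2r1 had 36.9 kb at P0 and 18.6 kb at P3, Vmn2r97 19.3 and 6.47 kb, Vmn2r59 29.9 and 17.9 kb and Vmn2r78 17.9 and 8.52 kb. In KO the family had 1038.5 and 800.2 kb. Among all genes with a mean of 2 kb or more the share lost ran from 3.08% to 13.2% between classes of coverage. Members of the family lie side by side and are not independent. For 3 other families the tested members called lost were few or near the share among all genes, and their values are given as a description. Of 1100 Olfr genes, which encode odorant receptors, 54 were tested, 2 gained and 9 lost, with a sum of 576.5 and 504.3 kb. Of 230 Vmn1r genes 10 were tested and 2 lost, among them Vmn1r63 with 15.9 and 7.89 kb. Of 54 Cyp2 and Cyp3 genes, cytochromes of drug and steroid metabolism, 30 were tested, 3 gained and 5 lost, with a sum of 601.3 and 460.0 kb. Cyp3a25, covered over its whole 32.5 kb at P0, had 14.7 kb at P3, and its neighbour Cyp3a59 had 33.9 and 9.88 kb.

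Zinc finger genes, long neuronal genes and imprinted genes had members in both directions. Of 386 Zfp genes 127 were tested, 54 gained and 17 lost, with 771.3 kb at P0 and 883.0 kb at P3. Zfp804b had 135.2 and 99.0 kb, Zfp407 14.0 and 25.1 kb, Zfp704 8.39 and 18.6 kb and Zfp521 13.1 and 22.9 kb. Of 53 genes of synaptic adhesion 36 were tested, 3 gained and 2 lost, but 29 had less covered length at P3 and 10 had more, and the sum went from 2264 to 1955 kb. Cntnap5c had 134.3 and 107.3 kb, Nlgn1, a neuroligin, 70.9 and 46.7 kb and Cntn5 158.0 and 134.0 kb. Of 26 glutamate receptor genes 20 were tested, 2 gained and 3 lost, with Grik2 at 86.9 and 47.6 kb and Grm4, in the other direction, at 9.21 and 24.6 kb. Of 23 cadherin genes 18 were tested, 3 gained and 1 lost, with Cdh12 at 131.6 and 97.5 kb and Cdh13 at 110.4 and 134.9 kb. Of 33 imprinted genes 16 were tested, 5 gained and 5 lost. Trappc9 had 3.83 and 12.3 kb and Igf2r 1.86 and 5.82 kb, while Usp29 had 18.8 and 13.53 kb and Snurf, which overlaps Snrpn, 9.75 and 3.24 kb. Of 57 clustered protocadherin genes, whose bodies overlap, 27 were tested, 7 gained and 1 lost, with Pcdha12 at 39.3 and 28.7 kb. Their sum nevertheless went from 570.4 to 477.7 kb, with 21 members lower and 14 higher at P3, and in KO 0 gained and 7 lost. Of 71 defensin genes 7 were tested, 1 gained and 0 lost, and of 39 Hox genes 1, Hoxa11, held a called base pair. Of 30 somatic testis genes 7 were tested, 1 gained (Vwf, 4.77 and 8.25 kb) and 1 lost (Gata4, 4.31 and 2.79 kb).

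**Figure D4:**
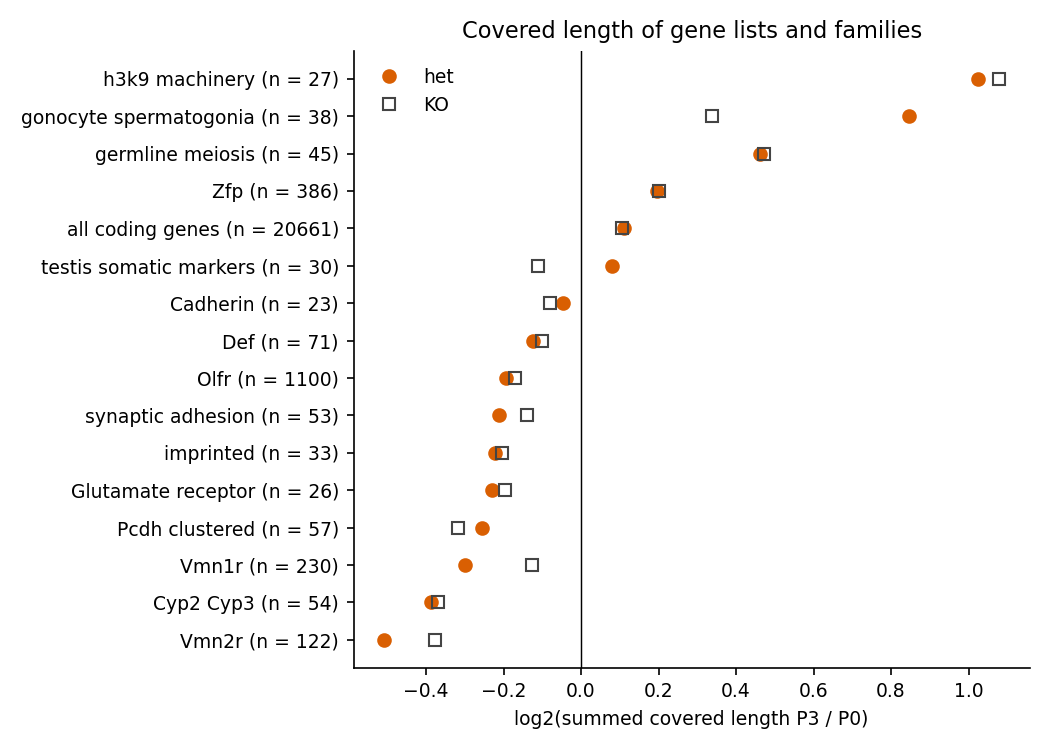
Summed covered length of each gene list or family at P3 over that at P0, as log2, in het (filled circles) and KO (open squares), with the number of autosomal genes; a line marks equal length. The lists of H3K9 methylation, gonocyte and germ line genes and the Zfp family lie to the right of all coding genes in both genotypes, and Vmn2r has the lowest het value.

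The longest new and gone peaks and the most changed kept ones lay both within and between genes. Beside the new peak in Ddx4, the 5 longest included 11.2 kb at chr2:124855005-124866248, between Sema6d and Slc24a5, 10.7 kb at chr10:87004019-87014684, over Stab2, and 10.3 kb at chr3:5719325-5729616, beyond Pex2. The one between Sema6d and Slc24a5 had no called base pair in either embryonic het list and was covered over the same 11.2 kb in P3 KO. The 5 longest gone peaks included 11.2 kb at chr1:8469518-8480724 in Sntg1, 10.5 kb at chr7:19906836-19917327 over Pvr, 10.02 kb at chr5:142842079-142852095 between Tnrc18 and Fbxl18, and 10.004 kb at chr19:15150731-15160734 between Tle4 and Psat1. The last one had no called base pair in any of the other 7 lists. Of the 5 peaks that widened most, 3 overlapped a gene: Zfhx3 (1.599 to 13.1 kb), Ercc6, a DNA repair factor (1.30 to 12.7 kb), and Kdelr2, a receptor that retains proteins in the endoplasmic reticulum (1.25 to 12.3 kb). The other 2 lay between Appl2 and 1500009L16Rik (10.3 to 21.7 kb) and between Mppe1 and Impa2 (2.40 to 12.4 kb). The 5 that narrowed most all lay between genes, and the largest went from 16.3 to 2.99 kb between F2rl3 and Isx. The others lay beside Grm3 (13.4 to 1.26 kb), beside Cdh2 (13.1 to 1.001 kb), between Prl2a1 and Prl2c1 (12.8 to 1.001 kb) and between Pabpc4l and Pcdh18 (12.7 to 1.001 kb).

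The KO list of the same day held most of the changed peaks, and the list of the other day held fewer, but many changed peaks were in KO at both stages. Of the new het peaks 70.5% (69.7% to 71.4%) touched a P3 KO peak and 37.8% (36.9% to 38.7%) a P0 KO peak. Of the gone het peaks 74.997% (74.4% to 75.6%) touched a P0 KO peak and 41.7% (40.9% to 42.4%) a P3 KO peak. Of the new peaks, 38.2% were found in KO at P3 only, 5.44% at P0 only and 32.3% at both stages. Of the gone peaks, 35.6% were found in KO at P0 only, 2.26% at P3 only and 39.4% at both stages. A minority of the changed peaks was thus new or gone in KO by the same pattern. Widths changed in the same direction in KO in a minority of pairs, and in the opposite direction in few. Of the narrower het pairs with 1 KO counterpart at each stage, 40.8% were narrower and 3.69% wider in KO. Of the wider het pairs 41.8% were wider and 4.18% narrower. KO held 24.03% of the new and 22.7% of the gone peaks at neither stage, against 6.31% of kept P0 peaks.

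The embryonic het lists held more of the gone than of the new peaks. At E16.5, 44.6% (43.9% to 45.4%) of gone and 21.7% (21.0% to 22.5%) of new peaks had a counterpart, against 78.8% of kept P0 peaks. At E13.5 the shares were 17.0%, 12.7% and 55.2%. Either embryonic het list held 25.4% of the new peaks and 47.5% of the gone ones. The new peaks in genes were less often present at E16.5 than the new peaks between genes, with 15.6% against 28.1%. Of kept pairs, 61.2% of the wider, 78.5% of the narrower and 84.1% of those that changed less had a counterpart at E16.5. The median P0 length of these classes was 1721, 3130 and 3513 bp, and a longer peak meets the rule of 1 shared bp more easily.

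**Figure D5:**
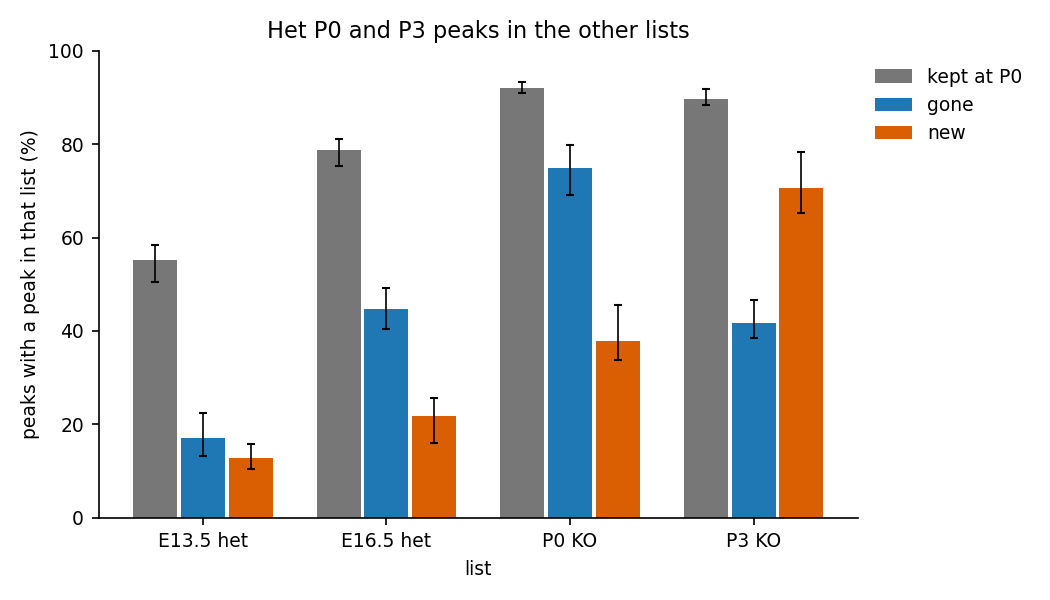
Percent of kept (P0), gone and new het peaks that touch a peak of the E13.5 het, E16.5 het, P0 KO and P3 KO lists; bars give all 19 autosomes and whiskers the lowest and highest autosome. Gone peaks are the more frequent in P0 KO and new peaks in P3 KO, and both are less frequent than kept peaks in every list shown.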

How the data were processed

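Per the labels' protocols, germ cells were fixed and sonicated, chromatin was precipitated with an H3K9me3 antibody and libraries were prepared with a kit for ultralow input. The submitters' processing notes name bcl2fastq 2.20, cutadapt 1.18, Bowtie2 2.3.4.1, deepTools 3.5.0, HOMER 4.10 and the build mm10. Which tool called the peaks, at what threshold, with which control and from how many samples is not given in the sources used here. The deposited lists hold a chromosome, a start and an end per peak and no score. Lists were read with Python 3.11.15, numpy 2.4.6 and pandas 2.3.3, and overlap functions were tested on simulated data. Genes came from the RefSeq table of GRCm38.p6 (the assembly of mm10), with 20661 coding genes on autosomes and no exons, so introns were not told from exons. Covered length is the number of base pairs of a gene body inside peaks. Named genes were the 10 largest increases and decreases, the members of each list with the largest change, genes at the most changed peaks, listed genes whose start lay in a new or gone peak, Morc1 and Ddx4. A few items that this rule names are not reported here. Members, lists and tests were chosen with earlier results of these data known. Alternatives changed the overlap, peak number, shortest peaks, joining, the X chromosome and the gene rules.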

Additional observations from a re-analysis of the deposited data

Results flagged for a closer look

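Among the 20 genes with the largest changes, 2 moved one way in het and the other way in KO, and the difference between the genotypes was not tested. Zfhx3 had 38.0 kb more at P3 than at P0 in het (58.0 and 96.0 kb), and its change in KO was -12.6 kb (76.6 and 64.0 kb). Khdrbs2 had a change of -64.1 kb in het (141.9 and 77.8 kb) and of 26.1 kb in KO (136.2 and 162.4 kb).

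The X chromosome, outside the comparison, stood apart from the autosomes. In het it had 153 new peaks, 4.40% of its 3478 P3 peaks, and 1605 gone peaks, 34.3% of its 4682 P0 peaks. Its covered length went from 15.8 to 9.11 Mb, a ratio of 0.577 that was below the lowest autosome (0.852). In KO the X had 277 new and 1337 gone peaks and a ratio of 0.664. The H3 samples of the series were not analysed here, and the cause was not tested.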

How the results depend on the processing

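No difference or ratio changed direction under any alternative, while counts have no direction and were judged by size alone. Of 82 recomputed values, 65 stayed within their interval or within 1.5 times and 17 moved further. The 65 include the values for joining peaks closer than 1 kb, which could not change. The changes of the 20 genes with the largest differences kept their sign and stayed within 1.5 times over 60 recomputations. The genic share of new minus gone peaks, 25.5 percentage points, was 23.7 when at least 50% of the shorter peak had to be in common, 27.4 without peaks of the shortest common length and 28.7 in base pairs. The excess of new peaks in P3 KO over P0 KO, 32.8 points, was 29.8 with the 50% overlap and 28.9 with the longest peaks in equal number. That of gone peaks in P0 KO over P3 KO, 33.3 points, was 32.1 with the 50% overlap and 25.9 without the shortest common length. The excess of gone over new peaks at E16.5, 22.9 points, was 21.3 and 28.5 under those 2 settings. With a ratio of 0.6, 6875 pairs were narrower and 4172 wider. Lost genes numbered 1246 with 5 kb on each side, 419 at a ratio of 2 and 1151 with a minimum of 1 kb. A 1 kb window around the start put 283 starts in new and 319 in gone peaks and took the CG difference from 36.0 to 19.8 points. The cause of these shifts was not tested, apart from the wider or stricter rules themselves. Joining peaks closer than 1 kb changed nothing, since the smallest gap in any list was 1499 bp; joining at 3 kb, and peak number and shortest length for gene starts, were added after seeing the data. No paired analysis was possible because each group had 1 list with no replicate, and for the same reason no replicate could be left out. Depth and calling threshold are not given in the sources used here, and short peaks, which made up most new and gone ones, depend on both.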
